A study of Sus scrofa with 27 samples.

Results

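The genes described here mark the thin gas-exchange cell of the alveolus, the alveolar type 1 (AT1) cell, and the keratin-rich cell state that lies between the alveolar type 2 (AT2) and the AT1 cell. Of 10 listed genes, 7 were found by gene name among the 31908 rows of the count table, namely AGER, CAV1, RTKN2, CLIC5, EMP2, KRT7 and KRT8, and each of them had at least 10 counts in some library. Another 2, PDPN and HOPX, have a row without a gene name. They were recognised by the description of the row and are reported beside the 7 without entering the counts of members. KRT19 has no row of its own, because its locus at chr12:21115453-21119115 lies inside a long keratin 14-like row at chr12:21024314-21119396, and it was dropped.

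The study placed pig lungs on ex vivo lung perfusion (EVLP), in which a procured lung is ventilated and perfused outside the body. All lungs came from Large-White pigs in a non-heart-beating donor model and had a period of cold ischemia before EVLP with Steen solution that held methylprednisolone, cefuroxime and heparin, so both groups carry the glucocorticoid. In the Gold Standard (GS) group, 5 pigs numbered 9, 17, 44, 55 and 77, a part of the perfusate was replaced at intervals. In the Pediatric Dialysis (PD) group, 4 pigs numbered 2, 3, 4 and 5, a hemodialyzer with a pediatric membrane ran on the circuit instead. Each lung was biopsied at 0h, 6h and 12h, which gives 27 RNA-seq libraries, 15 in GS and 12 in PD. The age of the pigs is not given in the sources used here. A biopsy is whole lung tissue, so for every gene here fewer cells of a type and less RNA per cell cannot be told apart.

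AT1 cells are very flat and cover most of the alveolar surface, while the cuboidal AT2 cells make surfactant and act as their progenitors. After injury, AT2 cells spread and pass through a transitional state with high KRT8, the type II keratin that pairs with KRT18 in simple epithelia, before they take on AT1 genes. AGER encodes the receptor for advanced glycation end products and is the best known AT1 marker of the lung. PDPN encodes podoplanin, a membrane mucin-like glycoprotein shared by AT1 cells, lymphatic endothelium and mesothelium. HOPX is a homeodomain-only protein of AT1 cells. CAV1, the coat protein of caveolae, is made by AT1 cells and by endothelium. RTKN2 encodes rhotekin 2, CLIC5 a chloride intracellular channel protein tied to the actin cortex, and EMP2 a tetraspan membrane protein. KRT7 is a simple-epithelium keratin of airway and alveolar cells.

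In Sscrofa11.1, KRT8 (ENSSSCG00000000252) lies at chr5:18170354-18180404 and KRT7 (ENSSSCG00000038966) on the same chromosome at chr5:17555714-17571141. AGER (ENSSSCG00000001437) lies at chr7:24218116-24228756, a row that runs past the RefSeq gene, which ends at 24221162, and over the neighbouring genes PBX2 and GPSM3, so its counts may be affected by reads in that overlap. CLIC5 (ENSSSCG00000037416) lies at chr7:40682907-40863886 and EMP2 (ENSSSCG00000037065) at chr3:32450604-32492722. RTKN2 (ENSSSCG00000039707) lies at chr14:65686725-65852032 and CAV1 (ENSSSCG00000016634) at chr18:29649992-29682465. The rows without a name are PDPN (ENSSSCG00000003451) at chr6:73019057-73049998 and HOPX (ENSSSCG00000008898) at chr8:55862191-55901633. Each interval is a gene row with exons and introns, and those of CAV1, RTKN2, EMP2 and KRT7, among others, leave out part of the RefSeq gene.

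The promoters of KRT8 and PDPN are shown because these genes rose in the comparisons below. Each is the 250 bases before the RefSeq start of the gene in Sscrofa11.1, 5′ to 3′ on the strand of the gene, at chr5:18180278-18180527 on the minus strand for KRT8 and at chr6:73018813-73019062 on the plus strand for PDPN. Capitals mark matches on either strand to the TEAD core GGAATG, the AP-1 site TGANTCA, the TATA box TATAAA, the GC box GGGCGG, the CACCC box CCACCC or an NFKB site.
KRT8: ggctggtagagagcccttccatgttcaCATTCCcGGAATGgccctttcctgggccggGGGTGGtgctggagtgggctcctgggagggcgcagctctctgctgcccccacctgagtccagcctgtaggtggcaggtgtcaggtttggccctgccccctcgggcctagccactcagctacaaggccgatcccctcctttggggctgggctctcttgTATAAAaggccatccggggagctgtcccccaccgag
PDPN: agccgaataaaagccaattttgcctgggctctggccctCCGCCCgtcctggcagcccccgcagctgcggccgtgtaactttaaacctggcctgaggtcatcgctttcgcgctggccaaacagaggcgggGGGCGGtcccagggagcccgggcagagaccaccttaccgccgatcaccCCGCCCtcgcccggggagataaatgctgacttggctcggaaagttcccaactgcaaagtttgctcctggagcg
The KRT8 promoter held 2 TEAD cores in opposite directions next to each other, 1 CACCC box and 1 TATA box, and the PDPN promoter held 3 GC boxes. No 2 of these matches overlap. Among 19546 promoters of protein-coding RefSeq genes of the same length, 10.3% held a TEAD core and 0.752% held 2 or more, a count chosen after the KRT8 sequence was seen. The TATA box was found in 9.77%, the CACCC box in 30.5%, the GC box in 45.9%, the AP-1 site in 5.26% and the NFKB site in 2.36%. A TEAD core was also found once in the promoters of AGER and HOPX and in none of those of CAV1, RTKN2, CLIC5, EMP2 and PDPN. The AP-1 site was in none of these 8 promoters, and the NFKB site only in that of EMP2. KRT7 was not searched, since its RefSeq model is not a protein-coding gene. These matches are letters in a window, not sites of binding.

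Levels are given in CPM, the count scaled to the size of the effective library (the total count times the TMM factor), and log2 CPM has 0.5 added to each count. The total counts were 14650700 to 21820935 in PD libraries and 26335584 to 67522703 in GS libraries, and the lowest count of a member was 78, so the counting error of the members is small beside the spread between lungs. All PD libraries are shallower than every GS library, and in all of them long transcripts were low (Spearman correlation of −0.461 to −0.0512 across 13696 genes between exon length and the deviation from the median of the gene), against −0.0171 to 0.340 in GS. Depth, library composition and group cannot be told apart. A pair of PD libraries stood furthest from the others, that of pig 2 at 12h and that of pig 4 at 0h, with an SD of 1.68 and 1.61 on the log2 scale around the median of each gene against 0.741 to 1.32 in the other 25 libraries. CAV1 shows this best, with 79 and 78 counts in these libraries, or 8.53 and 4.47 CPM, against 88.0 to 263 CPM in the other PD libraries. In the library of pig 2 at 12h, KRT7, KRT8 and AGER, the members with the highest GC content (62.3%, 59.7% and 62.5% of the exons), lay 2.55, 2.26 and 1.87 above the median of the other PD lungs at that time on the log2 scale, while CLIC5 and CAV1 (49.9% and 42.3%) lay at −1.88 and −4.29. The order by GC content is not strict, since RTKN2 with the lowest (36.7%) lay at −0.69 and PDPN (49.5%) at −0.50. In the library of pig 4 at 0h KRT8 and KRT7 were near that median (−0.04 and −0.03), and CAV1 was at −5.42. The PD results for KRT8, PDPN, AGER, HOPX, RTKN2, CLIC5, CAV1 and KRT7 are also given without this pair of libraries. So are the PD counts of the gene lists at 12h.

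**Figure D1:**
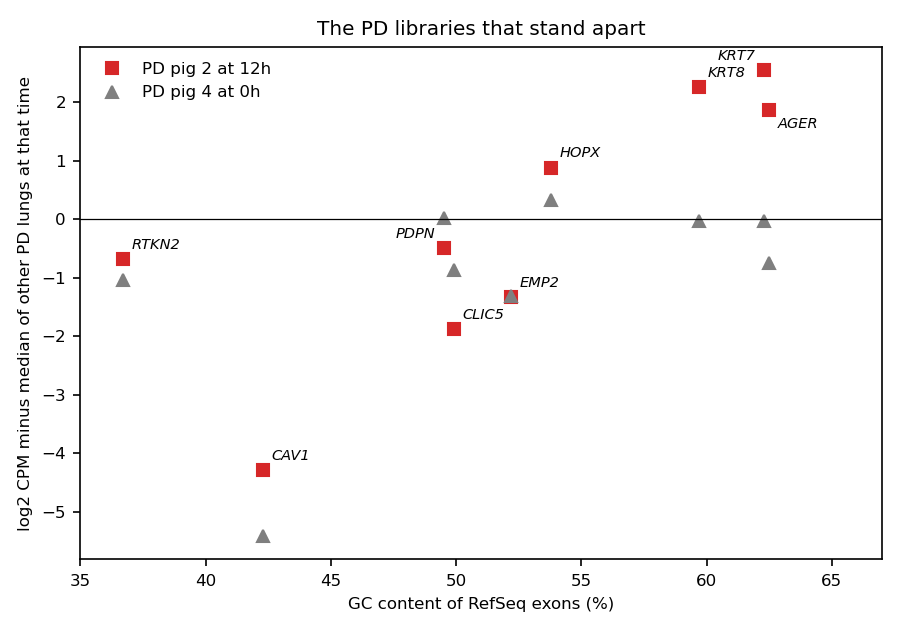
Each point is 1 gene in 1 of the PD libraries that stand apart, with the GC content of its RefSeq exons (%) on the x axis and its log2 CPM minus the median of the other PD lungs at that time on the y axis. CAV1 is at −4.29 and −5.42, and KRT7, KRT8 and AGER are 1.87 to 2.55 above 0 only in the library of pig 2 at 12h.

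Before perfusion AGER had the highest mean level of these transcripts per length. In GS lungs at 0h its mean level was 531 CPM per kb of RefSeq exon (lowest 449, highest 620, n = 5), above all the others in every lung. HOPX (106), CLIC5 (95.3) and CAV1 (68.2 CPM per kb) followed, and each neighbour in this order overlapped the next. EMP2 (52.7), PDPN (47.9) and KRT8 (42.5 CPM per kb) overlapped one another, and EMP2 with at most 57.1 lay just under CAV1 with at least 58.4. RTKN2 (15.6) and KRT7 (8.92 CPM per kb) were lowest and did not overlap each other. AGER, CLIC5 and HOPX were thus plainly present, as the lung label requires, and so were SFTPC of AT2 cells and PECAM1 of endothelium (lowest library 1690 and 470 CPM). In PD lungs at 0h the order was AGER (514), HOPX (423), KRT8 (142), PDPN (91.2), CLIC5 (58.2), CAV1 (45.7), EMP2 (36.8), KRT7 (17.5) and RTKN2 (12.8 CPM per kb, n = 4), and KRT8 thus moved from the seventh place to the third. AGER (295 to 826) and HOPX (313 to 506 CPM per kb) overlapped in PD. The KRT8 levels in PD lay wholly under those of HOPX and overlapped those of PDPN, and PDPN lay just above CLIC5 without overlap. The lower neighbours overlapped. These levels use RefSeq exon lengths for rows counted on Ensembl models, so they are approximate.

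**Figure D2:**
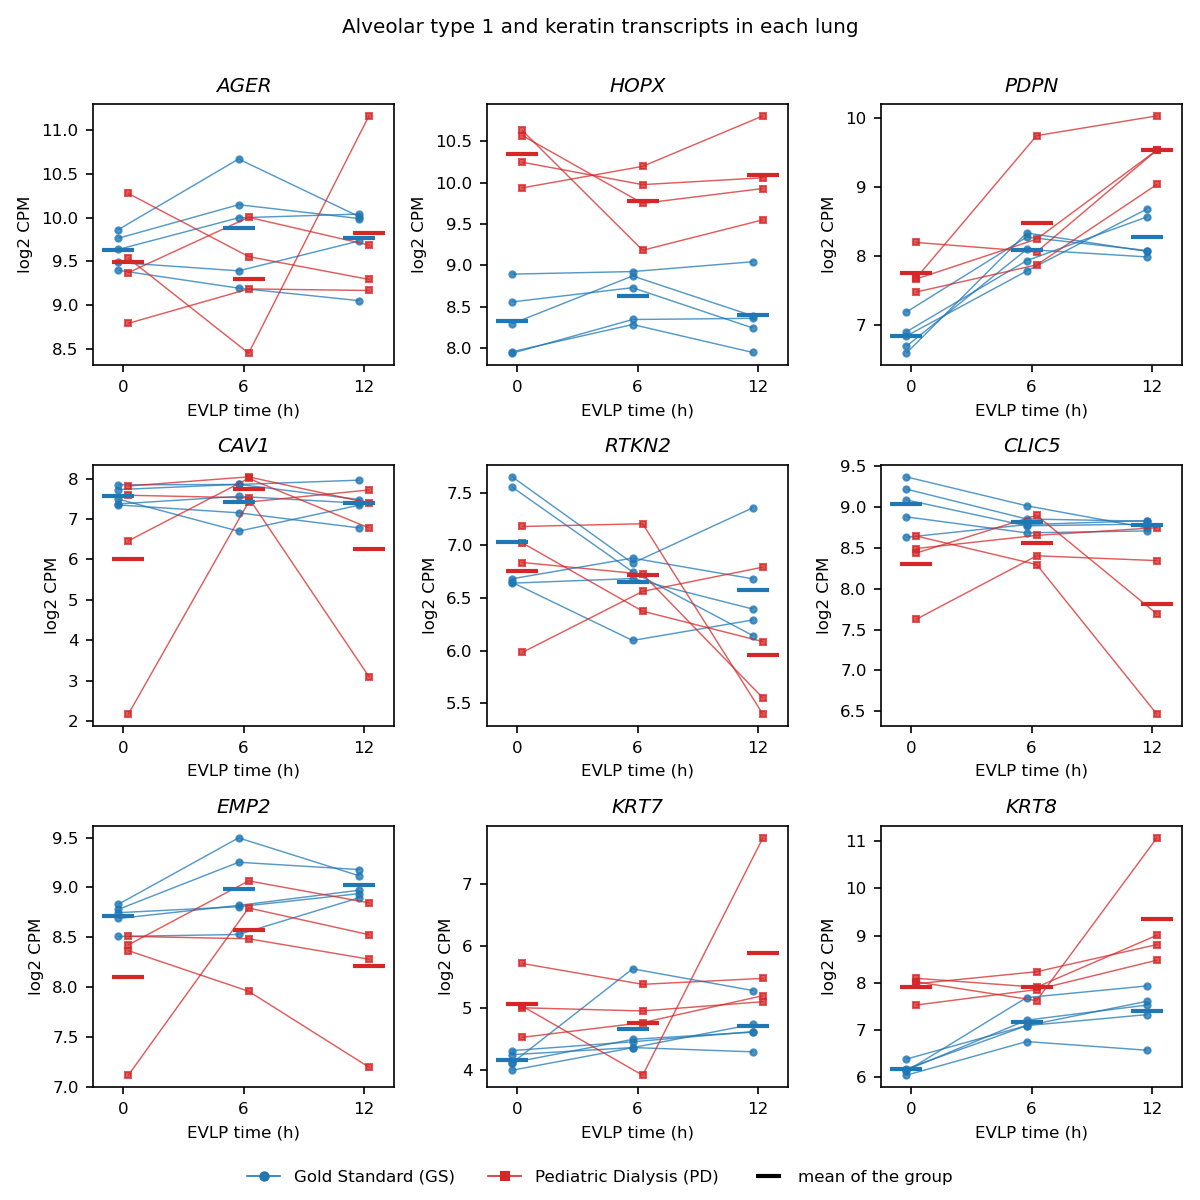
Each panel shows the log2 CPM of 1 gene against EVLP time (h), with 1 line per pig, circles for GS and squares for PD, and a bar at the mean of each group. KRT8 and PDPN are higher at 12h than at 0h in all 9 pigs, while CAV1 falls out in the libraries of pig 4 at 0h and pig 2 at 12h.

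KRT8 rose in the GS lungs. Its level at 0h was 66.0, 70.0, 71.1, 72.5 and 83.7 CPM in pigs 9, 17, 44, 55 and 77. At 6h it was 108, 206, 148, 137 and 137 CPM in the same pigs, and at 12h it was 95.3, 244, 185, 195 and 161 CPM. Every GS lung was higher at 6h and at 12h than any GS lung at 0h, so the time points do not overlap with 0h, and pig 9 was the lowest at both later times. The mean log2 ratio within pigs was 0.99 ± 0.35 (SD, n = 5) at 6h and 1.22 ± 0.49 at 12h, which are 1.99-fold and 2.32-fold. In the quasi-likelihood test of edgeR with the pig as replicate block, the log2 fold change was 0.96 ± 0.16 (SE, adjusted p = 0.00131) at 6h and 1.18 ± 0.16 (adjusted p = 0.00025) at 12h. Here and below the adjusted p is that of Benjamini and Hochberg over all genes tested, and a gene is called when it is under 0.05. KRT8 was the only one of the 7 members called at 6h and at 12h in GS, whereas 13.6% and 17.6% of the 18594 genes tested were called up at these times, and 14.9% and 20.8% were called down. With all 27 libraries in one fit the KRT8 call at 6h was lost (0.97, adjusted p = 0.0556). The correlation with exon length was lower at 12h than at 0h in each GS pig, for instance 0.0157 after 0.234 in pig 77 and 0.290 after 0.299 in pig 9. With the trends with GC content and exon length removed, KRT8 was 0.85 at 6h and 1.05 at 12h, both called by edgeR (adjusted p = 0.00214 and 0.000413).

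In PD lungs KRT8 was higher at 0h than in GS lungs, and its change was not called at 6h or 12h. At 0h it was 259.5, 185, 252 and 274 CPM in pigs 2, 3, 4 and 5. At 6h it was 197, 232, 301 and 240.1 CPM, with 2 lungs up and 2 down. At 12h it was 2144, 357, 449 and 514 CPM, higher than any PD lung at 0h or 6h, and pig 2 stood far above the rest in the library that stands apart. The log2 fold change was 0.06 ± 0.47 at 6h (adjusted p = 0.971) and 1.54 ± 0.50 at 12h, which was not called (adjusted p = 0.0886, edgeR) although all 4 lungs were higher. Without pig 2 it was 0.87 and called (adjusted p = 0.0427), and without both libraries that stand apart it was 0.80 and not called (adjusted p = 0.0754). DESeq2 (1.59, adjusted p = 0.0127), the fit without the replicate block (1.84, adjusted p = 0.0361), all 27 libraries in one fit (1.54, adjusted p = 0.00542) and removal of the trends with GC content and exon length (1.39, adjusted p = 0.00618) called it. It was not called by edgeR with DESeq2 size factors (1.585, adjusted p = 0.0859) or with no filter on low counts (1.57, adjusted p = 0.0647). Nor was it with only the 2 time points compared (1.39, adjusted p = 0.233). All settings from DESeq2 to this one kept the 12h library of pig 2. In the main edgeR fit none of the 7 members was called in PD at 6h or at 12h. At an unadjusted p under 0.05 that fit found 0 at 6h and KRT8 at 12h, and DESeq2 called 0 and 1. Few genes were called at all, 0.135% up and 0.00643% down at 6h and 3.22% up and 2.76% down at 12h, of 15545 tested.

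KRT8 was also set against AGER of the same library, since both have short GC-rich transcripts (1709 and 1504 bases of exon). This ratio was added after the data had been seen. The log2 ratio of KRT8 to AGER in GS was −3.45 ± 0.15 (SD, n = 5) at 0h, −2.71 ± 0.67 at 6h and −2.37 ± 0.33 at 12h. In PD it was −1.59 ± 0.59 (n = 4), −1.39 ± 0.62 and −0.49 ± 0.49. It was higher at 12h than at 0h in all 5 GS and all 4 PD lungs, by 1.08 ± 0.33 and 1.10 ± 0.68. At 6h all 5 GS lungs and 2 of the 4 PD lungs were higher. Pig 2 at 12h, with −0.10, lay close to pigs 5 and 4 with −0.29 and −0.36 in this ratio, whereas its KRT8 level alone was far from theirs. This restates that AGER, at 1.87 above the median of the other PD lungs, was high in that library along with KRT8 at 2.26. In pig 5 the ratio rose by 1.89 from 0h to 12h, while AGER itself changed by −0.985.

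**Figure D3:**
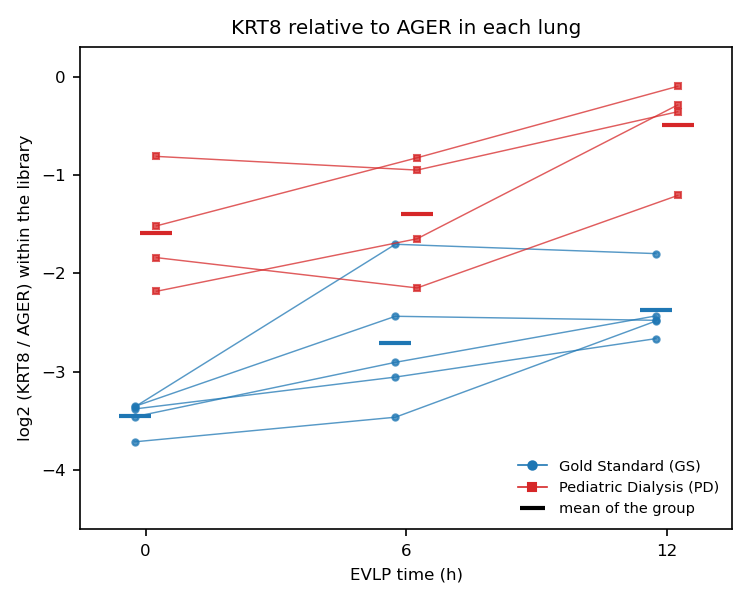
The log2 ratio of KRT8 to AGER within the library (y axis) is plotted against EVLP time (h) for each pig, with circles for GS, squares for PD and a bar at the group mean. All 9 lines are higher at 12h than at 0h, and at 0h the PD lungs (−2.18 to −0.81) lie above the GS lungs (−3.71 to −3.35).

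PDPN, recognised by its description, rose in both groups. In GS it was 145, 119, 96.0, 114 and 103 CPM at 0h in pigs 9, 17, 44, 55 and 77. It was 309.6, 244, 323, 219.8 and 273 CPM at 6h, and 270.5, 379.5, 268, 411 and 253 CPM at 12h. No GS lung at 6h or 12h overlaps a GS lung at 0h. The log2 fold change was 1.25 ± 0.17 (SE, adjusted p = 0.000522) at 6h and 1.42 ± 0.17 (adjusted p = 0.000131) at 12h. In PD it was 178, 203, 205 and 293 CPM at 0h in pigs 2, 3, 4 and 5, then 234, 303, 861 and 267 CPM at 6h, and 526, 745, 1051 and 745 CPM at 12h. Pig 4 was high already at 6h, and at 12h every PD lung was above every PD lung at 0h. The PD fold change was 0.73 ± 0.37 (adjusted p = 0.574) at 6h and 1.74 ± 0.37 (adjusted p = 0.0281) at 12h, or 3.33-fold, with edgeR. Without the libraries that stand apart it was 1.44 at 12h and still called (adjusted p = 0.00689). The call at 12h was lost without pig 3 (1.68, adjusted p = 0.221), pig 4 (1.61, adjusted p = 0.0566) or pig 5 (1.89, adjusted p = 0.259), fits in which 0, 399 and 0 of all genes were called, and with only the 2 time points compared (1.78, adjusted p = 0.11). The fold change stayed between 1.44 and 1.89 in all of these.

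**Figure D4:**
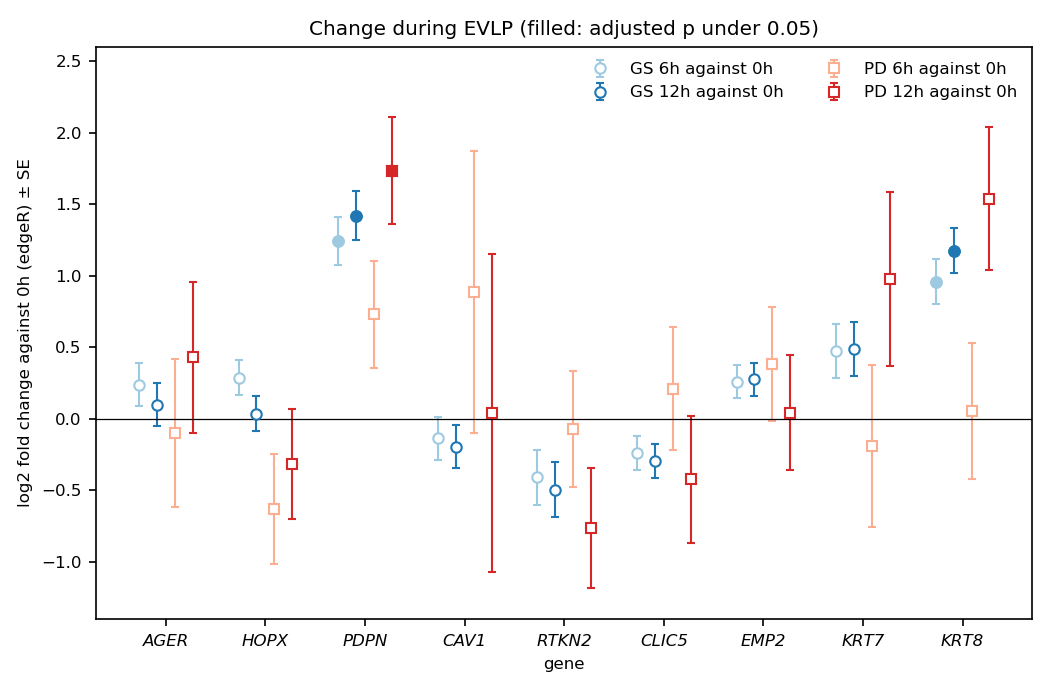
The log2 fold change against 0h with its SE (edgeR, pig as block) is shown for the 9 genes at 6h and 12h in GS (circles) and PD (squares), and filled symbols have an adjusted p under 0.05. KRT8 is filled in GS at both times, PDPN in GS at both times and in PD at 12h, and the PD error bars are wider for all 9 genes.

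AGER, HOPX, RTKN2, CLIC5, CAV1, EMP2 and KRT7 were not called in GS at 6h or 12h in the main edgeR fit with all 5 pigs. AGER was 675, 718, 932, 797 and 871 CPM at 0h and 531, 852, 1035, 1055 and 1018 CPM at 12h in pigs 9, 17, 44, 55 and 77. The time points overlap, and the log2 fold change was 0.10 ± 0.15 (adjusted p = 0.62). In PD it was 743, 663, 443 and 1243 CPM at 0h and 2299, 825, 575 and 628 CPM at 12h in pigs 2, 3, 4 and 5, a fold change of 0.43 ± 0.53 that turned to −0.53 without the libraries that stand apart. HOPX in GS was 245 to 475 CPM at 0h, 311 to 485 CPM at 6h and 246 to 527 CPM at 12h. It was higher at 6h in 5 of 5 GS lungs (0.29 ± 0.12, adjusted p = 0.0905, and called by DESeq2 with 0.32, adjusted p = 0.049) and at 12h it was 0.04 ± 0.12 (adjusted p = 0.826). In PD it was 979.6, 1214, 1519 and 1584 CPM at 0h, 1173, 1006, 859.8 and 580.4 CPM at 6h and 1791, 1066, 974 and 749 CPM at 12h (−0.31 ± 0.39 at 12h, adjusted p = 0.665, and −0.44 without the libraries that stand apart). Pigs 3, 4 and 5 were lower at both later times and pig 2 was higher. With each pig left out, the HOPX change at 12h in PD ranged from −0.69 to −0.017.

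RTKN2 and CLIC5 had lower means at 12h in both groups, without a call. RTKN2 was 201, 188, 99.8, 100.3 and 103 CPM at 0h in GS pigs 9, 17, 44, 55 and 77, and 164, 70.7, 84.1, 78.4 and 103 CPM at 12h. It was lower in all 5 lungs, in pig 77 at 0.999-fold only just, and the fold change was −0.49 ± 0.19 (adjusted p = 0.0542). It was called without pig 77 (−0.59, adjusted p = 0.0483) and was −0.26 without pig 17. With the GC and length trends removed RTKN2 was −0.31 in GS and −0.70 in PD at 12h (adjusted p = 0.265 and 0.0719, edgeR). In PD it was 145, 130.0, 63.3 and 114 CPM at 0h and 42.1, 67.9, 111 and 46.8 CPM at 12h (−0.76 ± 0.42, adjusted p = 0.292), with 3 lungs lower and pig 4 higher, and −0.80 without the libraries that stand apart. CLIC5 in GS went from 396 to 662 CPM at 0h to a narrow 418 to 456 CPM at 12h (−0.29 ± 0.12, adjusted p = 0.0672), lower in 4 of 5 lungs, and it was called without pig 9 (−0.36, adjusted p = 0.0223). In PD the CLIC5 fold change at 12h was −0.42 ± 0.45, with 88.2 CPM in pig 2. It was 0.09 without pig 2, and −0.22 without both libraries that stand apart.

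CAV1 in GS was 163, 179.7, 212, 166 and 229.7 CPM at 0h and 109.9, 162, 179, 168 and 249 CPM at 12h in pigs 9, 17, 44, 55 and 77 (−0.20 ± 0.15, adjusted p = 0.32). In PD it was 192, 225, 4.47 and 88.0 CPM at 0h, 184, 263, 171 and 256 CPM at 6h, and 8.53, 168, 210.4 and 109.7 CPM at 12h. Outside the libraries that stand apart no PD lung was under 88.0 CPM, and without them the fold change at 12h was −0.01 in place of 0.04. EMP2 was higher at 12h than at 0h in all 5 GS lungs, by 1.14-fold to 1.32-fold (0.28 ± 0.12, adjusted p = 0.0768), a change called by DESeq2 (0.33, adjusted p = 0.0248), with DESeq2 size factors and after removal of the GC and length trends. In PD 2 lungs were higher and 2 lower (0.04 ± 0.40).

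KRT7, the least abundant member in GS, was 17.4, 17.3, 19.0, 15.9 and 19.9 CPM at 0h in GS pigs 9, 17, 44, 55 and 77. It was 22.5, 49.5, 20.5, 20.5 and 21.9 CPM at 6h and 24.4, 38.9, 19.6, 26.6 and 24.5 CPM at 12h. All 5 lungs were higher at both times, and pig 17 was well above the others at 6h. The fold change of 0.47 ± 0.19 at 6h (adjusted p = 0.0728) and 0.49 ± 0.19 at 12h (adjusted p = 0.0524) was not called in the main edgeR fit. DESeq2 called both (adjusted p = 0.0362 and 0.0184). At 12h edgeR called it with DESeq2 size factors (0.55, adjusted p = 0.0327) and with only the 2 time points compared (0.57, adjusted p = 0.0395). Without pig 17 the value at 6h was 0.23. With the GC and length trends removed it was 0.35 at 6h and 0.36 at 12h, neither called (adjusted p = 0.209 and 0.18, edgeR). In PD KRT7 was 32.6, 23.0, 32.0 and 52.5 CPM at 0h and 214, 36.6, 34.3 and 44.5 CPM at 12h in pigs 2, 3, 4 and 5. The fold change of 0.98 ± 0.61 at 12h (adjusted p = 0.352) was 0.14 without pig 2, and −0.02 without both libraries that stand apart.

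Between 6h and 12h none of the 7 members was called in either group by edgeR with each group fitted alone, or by DESeq2. Of all genes edgeR called 0.0% in GS and 0.0% in PD (882 and 1562 at an unadjusted p under 0.05), and DESeq2 called 2 and 224. In PD edgeR called 492 genes, 1 member among them, with all 27 libraries in one fit and 680 without the libraries that stand apart. At an unadjusted p under 0.05 edgeR found none of the 7 members in GS and KRT8 in PD, where it was 1.49 ± 0.51 (adjusted p = 0.41) and higher in all 4 lungs. Without the libraries that stand apart KRT8 was 0.81 ± 0.28 (adjusted p = 0.0878). PDPN was 1.01 ± 0.37 in PD (adjusted p = 0.422) and 1.01 ± 0.31 without these libraries (adjusted p = 0.06), also with 4 of 4 lungs higher in the full set, and 0.18 ± 0.17 in GS with 2 of 5 higher.

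The groups were next compared at 0h, when the biopsy was taken after cold ischemia and before perfusion began. KRT8 was 3.44-fold higher in PD lungs (log2 fold change 1.78 ± 0.18, SE, adjusted p = 2.66e-05, edgeR, 4 against 5 lungs), and the 185 to 274 CPM of PD did not overlap the 66.0 to 83.7 CPM of GS. KRT7 was 2.02-fold higher (1.01 ± 0.23, adjusted p = 0.00452), with 23.0 to 52.5 against 15.9 to 19.9 CPM. CLIC5 was lower (−0.67 ± 0.25, adjusted p = 0.0451), with 401 CPM in the highest PD lung and 396 CPM in the lowest GS lung, so that the groups just overlap, and this call was lost without any of pigs 44, 55, 77, 3, 4 or 5 (adjusted p = 0.0621 to 0.0856) and after removal of the GC and length trends (−0.32). These are 2 members up and 1 down of 7, where 21.3% of 16477 genes were called up and 19.3% down. HOPX (4.11-fold, 2.04 ± 0.26, adjusted p = 0.000127) and PDPN (1.96-fold, 0.97 ± 0.21, adjusted p = 0.00285) were also higher in PD, each without overlap. AGER did not differ by more than its error (−0.01 ± 0.27). Without pig 4, whose library at 0h stands apart, KRT8 was 1.76, KRT7 1.05, HOPX 1.96 and PDPN 0.998, all called, CLIC5 was −0.49 and AGER 0.18. After removal of the GC and length trends KRT8 was still at 1.54, KRT7 at 0.92, HOPX at 2.15 and PDPN at 0.69, all called. Some markers of other cells differed too. Of 10 AT2 markers 2 were higher and 1 lower in PD, with a median of 0.19. SFTPC (3.56, adjusted p = 4.93e-05) and SFTPD (1.36, adjusted p = 0.00113) were higher and SFTPB was lower (−1.35, adjusted p = 0.0132). The summed AT2 level, 27500 to 79300 CPM in PD and 8300 to 10900 CPM in GS, includes SFTPC, the most abundant of them. Of 12 general epithelial genes 3 were higher and none lower, and their summed level of 1420 to 1550 CPM in PD did not overlap the 924 to 1230 CPM of GS. Of 22 further genes of the transitional state 7 were higher, among them KRT18 (1.58, adjusted p = 0.000129), and 1 was lower. Of 12 endothelial markers 3 were higher and 5 lower, and of 11 leukocyte markers 2 were higher and 5 lower. Of 19 further AT1 genes 2 were higher and 4 lower (median −0.37), with a summed level of 2220 to 5080 CPM in PD and 4790 to 6050 CPM in GS. Of 14 Hippo genes 1 was higher and 5 lower, and of 10 mesenchymal markers 2 were higher and 3 lower. Of 9 ciliated and club cell markers 2 were higher and 1 lower, and of 6 lymphatic markers 2 were lower and none higher. Of 2 mesothelial genes tested 1 was higher, UPK1B (1.57, adjusted p = 0.00885, edgeR). The summed level of 5 mesothelial genes was 3.37 to 8.08 CPM in PD and 1.26 to 2.43 CPM in GS, without overlap. The summed level of 4 red cell markers was 52.0 to 240 against 0.355 to 10.6 CPM. The sources do not say which lung had its RNA prepared by which of the 2 kits, and the part of these differences in the results was not tested.

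The change of each lung from its own 0h biopsy was then compared between PD and GS by an exact two-sided Wilcoxon test, whose smallest possible p with 4 and 5 lungs is 0.0159. KRT8 at 6h was the only one of the 7 members whose groups did not overlap, with log2 ratios of −0.40, 0.33, 0.26 and −0.19 in PD pigs 2, 3, 4 and 5, all below the 0.71 to 1.56 of the GS pigs. The difference of the means was −0.99 (exact p = 0.0159, adjusted p = 0.509). Among all 17884 genes 3.12% did not overlap at 6h, 335 with the higher change in PD and 223 with the lower. After removal of the GC and length trends the KRT8 difference was −0.66 and the groups overlapped, and over all genes the split was 189 higher and 281 lower. Without pig 2 the groups did not overlap for 3 members and without pig 3 for 2, where 1989 and 2386 of the 17884 genes did not overlap. At 12h none of the 7 members was without overlap, against 2.09% of all genes, and for KRT8 the difference was 0.22 (exact p = 0.905). In the edgeR fit of all 27 libraries no member had a called interaction of group and time at 6h or 12h, nor had any gene (0.0% and 0.0%; 1046 and 1069 at an unadjusted p under 0.05, and 7 and 15 called by DESeq2). Of the 7 members none was under an unadjusted 0.05 or called by DESeq2. The KRT8 interaction at 6h was −0.91 ± 0.47 (adjusted p = 0.783). That at 12h was 0.33 ± 0.48 (adjusted p = 0.957) and turned to −0.43 without the libraries that stand apart. HOPX had the largest interaction of the 9 genes relative to its error, −0.93 ± 0.35 at 6h (unadjusted p = 0.0142, adjusted p = 0.783), which was called without pig 2 (−1.18, adjusted p = 0.0392), a fit that called 254 genes at 6h and 153 at 12h.

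Other genes of the AT1 cell and of the transitional state were read from lists. These and the lists below were chosen with earlier results of these data known. Of 19 further AT1 genes tested in GS, 3 rose and 4 fell at 12h, with a median log2 fold change of 0.18 against −0.08 over all genes tested, and in PD 1 rose (median −0.10 against −0.05). These shares are near those of all genes at 12h, 17.6% up and 20.8% down in GS and 3.22% up in PD. ICAM1, an adhesion molecule that AT1 cells carry along with other cells, rose in both groups, by 1.84 ± 0.31 in GS (adjusted p = 0.00078) and 2.59 ± 0.38 in PD (adjusted p = 0.0149). GPRC5A, an orphan receptor of alveolar epithelium, and TIMP3, an inhibitor of metalloproteases bound to the matrix, rose in GS at 12h by 0.90 and 0.60 (adjusted p = 0.0013 and 0.00388), and AKAP5, an anchoring protein of protein kinase A, fell by 1.53 (adjusted p = 0.000355). In PD these were 0.94, 0.92 and −1.41 without a call. Without the libraries that stand apart 2 of the 19 rose and 1 fell in PD, with ICAM1 at 2.64, TIMP3 at 1.03 and AKAP5 at −1.28, where 1839 and 1722 of 15651 genes were called up and down.

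Of 22 further genes known from the transitional state that could be tested, 12 rose and none fell in GS at 6h and at 12h, with median log2 fold changes of 0.88 and 0.89 against −0.05 and −0.08 over all genes, of which 13.6% and 17.6% were called up. In PD none was called at 6h and 5 rose at 12h, with a median of 1.07 against −0.05, where 0.135% and 3.22% of all genes were called up. Since the list was chosen with earlier results of these data known, these counts beside those of all genes are a description and not a test. FOSL1, an AP-1 subunit, rose by 5.22 ± 0.75 in GS and 3.63 ± 0.61 in PD at 12h (adjusted p = 0.000382 and 0.0176). AREG, the EGF receptor ligand amphiregulin, rose by 3.94 ± 0.46 and 3.09 ± 0.49 (adjusted p = 0.000117 and 0.017). HBEGF, another ligand of the EGF receptor, rose by 1.85 ± 0.45 and 2.04 ± 0.43 (adjusted p = 0.00629 and 0.0277). Without the libraries that stand apart 10 of the 22 rose in PD and none fell (median 0.96), where 11.8% of all genes were called up. FOSL1 was then 3.92, AREG 3.54 and HBEGF 1.84, all called. Most of these genes are also induced in other cells of the lung. KRT18, the partner of KRT8, rose by 0.84 in GS at 12h (adjusted p = 0.00395) and was 1.54 in PD (adjusted p = 0.058), or 0.88 without the libraries that stand apart (adjusted p = 0.0662). ITGB6, ITGAV and MDM2 of the same list were not called in GS or PD at either time.

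**Figure D5:**
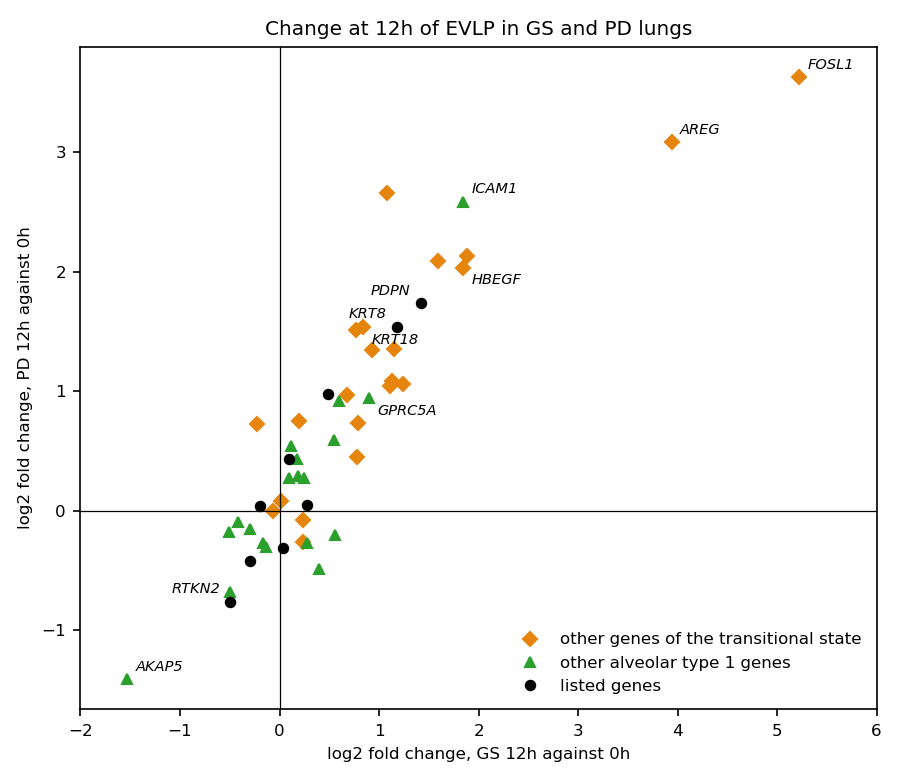
The log2 fold change at 12h against 0h in GS (x axis) and PD (y axis) is plotted for the 9 listed genes (circles), 19 further AT1 genes (triangles) and 22 further genes of the transitional state (diamonds). FOSL1 (5.22 and 3.63) and AREG (3.94 and 3.09) lie furthest out, and PDPN and KRT8 lie at 1.42 and 1.74 and at 1.18 and 1.54.

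Genes of the Hippo pathway, which acts through YAP1, WWTR1 and the TEAD factors and is known to guide AT1 fate, were read too. Of 14 tested in GS at 12h, 7 rose and 1 fell (median 0.30 against −0.08 over all genes, of which 17.6% rose and 20.8% fell), and in PD none was called (median 0.56 against −0.05, with 3.22% of all genes up). ANKRD1, a target of YAP1, rose by 1.68 in GS (adjusted p = 0.00662) and was 2.82 in PD (adjusted p = 0.0619), or 1.63 without the libraries that stand apart (adjusted p = 0.141). Without these libraries 3 of the 14 rose and 1 fell in PD, where 1839 and 1722 of 15651 genes were called up and down. TEAD4 and TEAD3 rose by 1.39 and 1.02 in GS (adjusted p = 0.00259 and 0.000554), TEAD2 fell by 0.53 (adjusted p = 0.00972), and the targets CCN1 and CCN2 were −0.91 and −0.75 without a call. Of 4 basal cell genes, 3 fell in GS at 12h, TP63 by 1.59, KRT15 by 1.75 and NGFR by 1.62 (adjusted p = 0.000943, 0.015 and 0.00153), and none was called in PD, or 1 down without the libraries that stand apart. KRT15 and NGFR were near the floor, with means of 0.708 and 0.598 CPM. KRT5, the defining basal keratin, was at 2.47 to 42.2 CPM. The summed level of the 4 genes had a median of 15.5 CPM at 0h and 6.87 CPM at 12h in GS, with overlapping ranges, and of 18.9 and 26.4 CPM in PD.

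Markers of other cells that share members were set beside these changes. Their counts stand beside 17.6% of all genes called up and 20.8% called down in GS at 12h and 3.22% and 2.76% in PD. The PD counts without the libraries that stand apart belong beside 1839 genes called up and 1722 called down of 15651. Of 12 general epithelial genes, 4 rose and 1 fell in GS at 12h and none was called in PD, or 2 up without the libraries that stand apart. CDH1 is also 1 of the 12 genes of the transitional state that rose. CDH1 and EPCAM, the most abundant of them, rose by 1.24 and 1.58 in GS (adjusted p = 0.000575 and 0.000132) and were 1.06 and 1.32 in PD (adjusted p = 0.0735 and 0.0695), and the summed level went from 924 to 1230 CPM at 0h to 1610 to 2280 CPM at 12h in GS and from 1420 to 1550 to 2070 to 2960 CPM in PD. The part of a change in epithelial RNA as a whole in the rise of KRT8 was not tested. Of 8 listed mesothelial genes 5 could be matched to a row. CALB2 had at most 1 count and BNC1 at most 12 counts in a library, while WT1 reached 53 and UPK1B 113 counts. The 5 genes summed to at most 8.85 CPM. UPK1B and WT1, the most abundant of them, were 0.21 and 1.25 in GS at 12h without a call. The 6 lymphatic markers, which matter for PDPN, had 3 called down and none up in GS at 12h, with LYVE1 at 0.17 (adjusted p = 0.464) and CCL21 at −1.31 (adjusted p = 0.014), and none called in PD. The 12 endothelial markers matter for CAV1, and also for HOPX, CLIC5 and EMP2, which endothelium uses too. Of these markers 1 rose and 4 fell in GS at 12h. In PD none was called, or 3 down without the libraries that stand apart. Without them 1 lymphatic marker fell and no mesothelial gene was called. PECAM1 rose by 0.44 in GS (adjusted p = 0.0102) and CDH5 was 0.16 (adjusted p = 0.402).

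Of 10 AT2 markers 1 rose and 3 fell in GS at 12h, and 1 fell in PD. SFTPA1, a surfactant protein gene, rose by 0.53 in GS (adjusted p = 0.0376), and SFTPC was 0.14 (adjusted p = 0.544). Of 9 ciliated and club cell markers 4 fell in GS at 12h, among them SCGB1A1 by 1.61 (adjusted p = 0.00106), and none of 8 was called in PD, with SCGB3A2 at 0.63 and 0.42 uncalled. Of 11 leukocyte markers 5 fell in GS and 1 in PD, while MARCO and CD163 of alveolar macrophages were −0.09 and 0.53 in GS without a call. Of 10 mesenchymal markers 1 fell in GS and none in PD, with COL3A1 and COL1A2 at −0.16 and −0.22 in GS. Of the red cell markers HBB fell in GS by 1.5 (adjusted p = 0.0189) and ALAS2 was −0.44. None of 4 red cell markers was called in PD at 12h. With the libraries that stand apart left out, 1 AT2, 1 ciliated or club cell and 1 leukocyte marker fell in PD at 12h. Of the 10 mesenchymal markers 1 then rose and 1 fell, and 2 of 3 red cell markers tested fell.

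Genes whose pattern was most like that of KRT8 were picked by the Pearson correlation of log2 CPM over the 27 libraries, centred on each pig. They were DNAJC5 (0.959), KRT18 (0.950), PDIA6 (0.946), MED9 (0.943) and SNAPC2 (0.941), all with an exon GC content of 57.4% to 66.0% beside the 59.7% of KRT8. Among the members, KRT7 (0.876), PDPN (0.786) and AGER (0.667) went with KRT8, and RTKN2 (−0.790), CLIC5 (−0.741) and CAV1 (−0.411) went against it. Those closest to AGER were ARHGDIA (0.929), ILK (0.928), GSN (0.924), ALDH3A1 (0.923) and PTMS (0.922), with a GC content of 56.4% to 67.2%. The 27 points share libraries, pigs and base composition, so these are descriptions. Without the libraries that stand apart the 5 genes most like KRT8 were at 0.886 to 0.926 and PDPN at 0.917, while AGER was at 0.209, KRT7 at 0.726 and EMP2 at 0.471 in place of −0.069. Those named for AGER were then at 0.803 to 0.921.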

How the data were processed

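The authors deposited raw counts per Ensembl gene, whole numbers that were used as deposited. Per the labels and the study's methods, reads were trimmed with cutadapt 1.15 and aligned with TopHat2 2.0.14 to Sscrofa11.1, and featureCounts of Subread 1.6.0 is named. Whether strand was used, and what was done with multi-mapped reads, is not given in the sources used here, so overlapping rows and keratin copies carry an unknown error. All columns were used.

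The members and gene lists were chosen with earlier results of these data known. Each group was fitted in edgeR 4.0.16 (R 4.3.3, limma 3.58.1) with filterByExpr, TMM and robust quasi-likelihood tests, two-sided, with its 3 time points and the pig as replicate block, since the 3 biopsies of a number come from 1 animal. Residuals of libraries from the same pig correlated by 0.344 to 0.730 in GS and −0.265 to 0.462 in PD. The groups at 0h were fitted without the block. Changes were compared between groups by an exact Wilcoxon test on log2 CPM ratios and by an edgeR interaction. Scripts were tested on simulated data.

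Named were all members, up to 4 genes of each related list (called in both groups at 12h with the largest change, otherwise in 1 group), the 2 most abundant genes of each marker list and up to 5 genes most like KRT8 (planned with KRT19, which was dropped) or AGER. ITGB6, ITGAV, MDM2, CCN1, CCN2, KRT5, CALB2 and BNC1 were named after their values were seen, and 1 gene that the rule names is not reported here. Alternatives were DESeq2 1.42.0, its size factors, no replicate block, no low-count filter, only 2 time points, all 27 libraries in one fit, a fold change of at least 2, rlog values, 2 added to each count and each pig left out. Removal of the trends with GC content and exon length (splines with 5 degrees of freedom), leaving out the 2 PD libraries that stand apart and the KRT8 to AGER ratio were chosen after seeing the data. Promoters come from RefSeq, Sscrofa11.1.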

Additional observations from a re-analysis of the deposited data

Results flagged for a closer look

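Among 54 groups of 4 or 5 lungs (9 genes, 2 groups, 3 times), 4 held a lung whose log2 CPM lay far from all the others, and about 1 in 20 groups would do so by chance. KRT7 in PD at 12h was 7.74 in pig 2 against 5.10 to 5.48 in the other lungs, in 1 of the libraries that stand apart. EMP2 in PD at 0h was 7.11 in pig 4 against 8.36 to 8.51, in the other of these libraries. KRT7 in GS at 6h was 5.63 in pig 17 against 4.36 to 4.49, and RTKN2 in GS at 6h was 6.10 in pig 55 against 6.69 to 6.88. The GS libraries concerned do not stand apart as a whole.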

How the results depend on the processing

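Of 832 values recomputed under the alternatives for 64 single results, 757 kept their direction and their side of the threshold, 45 turned in sign, 17 gained a call and 13 lost one. The cause of these changes was not tested. The turned values all belong to changes that were not called. The number of the 7 members called at 6h in GS (1) was 2 with DESeq2 and 2 with the GC and length trends removed, 0 with all 27 libraries in one fit, and 0 with a fold change of at least 2. Of all genes the first 3 of these settings called 34.1%, 34.1% and 8.98%, and the last called 2057 genes, against 28.5% in the main fit. At 12h in GS (1) the number of members was 3 with DESeq2, 3 with DESeq2 size factors, 2 with the trends removed, 2 with only the 2 time points and 1 to 2 with each pig left out. Of all genes these settings called 43.2%, 37.6%, 44.6%, 31.1% and 25.3% to 40.3%, against 38.4% in the main fit. At 12h in PD (0) the number of members was 1 with DESeq2, 1 with the trends removed, 1 with all 27 libraries and 0 to 1 with each pig left out, and for 12h against 6h in PD (0) it was 1 with all 27 libraries. Of all genes these settings called 17.8%, 23.3%, 22.9% and 0.0% to 25.5% at 12h, and 2.75% for 12h against 6h. The main fits called 5.98% and 0.0%. Members whose changes did not overlap between groups at 6h (1) numbered 0 with the trends removed and 1 to 3 with each pig left out, and members called at 0h (3) 2 to 3. Of all genes 3.42% and 3.66% to 13.3% did not overlap in these settings, and 34.2% to 43.6% were called at 0h with each pig left out.

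With the GC and length trends removed, AGER turned to −0.051 at 12h in GS and 0.094 at 6h in PD, KRT7 to 0.006 at 6h in PD, CAV1 to −0.058 and EMP2 to −0.043 at 12h in PD, EMP2 to 0.19 at 0h, and the interactions at 6h to −0.066 for EMP2 and −0.19 for RTKN2. Without the 2 PD libraries that stand apart, the PD change at 12h was −0.53 for AGER, −0.008 for CAV1, −0.054 for EMP2 and −0.015 for KRT7, that at 6h was −0.015 for KRT8, the interaction at 6h was −0.22 for EMP2, and that at 12h was −0.68 for AGER, 0.021 for CLIC5, −0.55 for KRT7, −0.43 for KRT8 and −0.028 for PDPN. Without the replicate block, 1 member was called at 12h in PD, CAV1 was −0.027 at 12h in PD and KRT8 −0.004 at 6h in PD, and beside KRT8 at 12h in PD (1.84) no other call of the 9 listed genes changed (other genes were not compared one by one).

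With each pig left out, the PD change at 12h ranged from −0.16 to 0.90 for AGER, −1.14 to 1.19 for CAV1, −0.80 to 0.087 for CLIC5 and −0.31 to 0.46 for EMP2, and that at 6h from −0.41 to 0.15 for AGER, −0.079 to 0.13 for KRT8 and −0.19 to 0.095 for RTKN2. In GS it ranged from −0.21 to 0.015 for CAV1 at 6h and −0.049 to 0.17 for HOPX at 12h, and at 0h AGER ranged from −0.32 to 0.18. The interaction ranged at 12h from −0.26 to 0.80 for AGER, −0.999 to 1.34 for CAV1, −0.56 to 0.37 for CLIC5, −0.64 to 0.17 for EMP2, −0.35 to 0.90 for KRT7 and −0.31 to 0.59 for KRT8, and at 6h from −0.26 to 0.42 for EMP2.

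Over all genes the calls at 6h and 12h in GS (5295 and 7136) were 1731 and 3083 without the replicate block and 1606 and 2883 with all 27 libraries, and without pig 44 they were 2720 and 4639 and without pig 77 3387 at 6h. In PD (22 and 930) they were 437 and 2767 with DESeq2, 211 and 3029 with the trends removed, 512 and 4093 with all 27 libraries, 100 and 1488 without the replicate block, 139 and 4 with only the 2 time points and 103 at 6h with no filter. Without pig 2 they were 98 and 4000, without pig 4 0 and 399, and 0 without pig 3 or pig 5 at both times. Without the libraries that stand apart they were 411 and 3561.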
